A study of Homo sapiens with 18 samples.

Results

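The hypoxia response targets described here are 10 genes that cells switch on when oxygen is short: VEGFA, ADM, EGLN3, KDM3A, PDK1, BNIP3, CA9, P4HA1, NDRG1 and ANKRD37. They were chosen by gene symbol, and each symbol matched 1 of the 57905 Ensembl gene IDs counted in every library. All 10 had enough counts to be tested in every experiment. BE(2)-m17 is a human neuroblastoma line. Both lines compared here carried the APP transgene vector pSBbi-Hyg-APP. The ABCC1 line also carried pSBbi-Pur-ABCC1(WT), a codon-optimized cDNA of the exporter ABCC1, and the empty vector line carried pSBbi-Pur. RNA1, RNA2 and RNA3, the 3 experiments, each held 3 libraries per line, 18 in all. By the study's text the repeats of the first experiment used cells thawed from frozen stocks in 1 case and lines made by a new transfection in the other, and the labels do not say which of RNA2 and RNA3 is which. In each culture 14000000 cells were plated in 3 mL of medium with 10% serum and lysed on day 4 with daily medium changes. The labels name no low-oxygen treatment, and no oxygen measurement was used here.

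Hypoxia-inducible factor (HIF) is a pair of an alpha and a beta subunit. When oxygen is present, EGLN enzymes hydroxylate the alpha subunit, and the VHL ubiquitin ligase then marks it for breakdown. When oxygen is short, the alpha subunit lasts, pairs with ARNT or ARNT2 and binds a short DNA motif near genes for blood vessel growth, glycolysis, mitochondrial turnover and collagen modification. In neuroblastoma the pathway is best known for the HIF alpha subunits HIF1A and EPAS1 and for VEGFA.

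The DNA motif is shown because it is what these genes are known to share. The core ACGTG or GCGTG, on either strand, was searched in windows of 300 bases, from 250 before to 50 after each RefSeq transcription start on GRCh38.p14. Windows of 8 genes were held in the table, and 7 of those genes had a match. Counted by window, 8 of their 10 windows held it. A match is common, since 48.4% of the 35116 windows of all genes held it. The stretch of 30 bases around the match or matches is printed 5′ to 3′ on the gene's own strand for each of the 7, and capitals mark the letters of the core (CACGTG holds a match on each strand). KDM3A had 2 windows that cover the same match, and PDK1 had 2 windows of which only the one shown held a match.
ADM (chr11:10304960-10304989, + strand): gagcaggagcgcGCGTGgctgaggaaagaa
CA9 (chr9:35673898-35673927, + strand): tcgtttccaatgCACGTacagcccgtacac
BNIP3 (chr10:131982040-131982069, − strand): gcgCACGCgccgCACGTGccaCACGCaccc
ANKRD37 (chr4:185396676-185396705, + strand): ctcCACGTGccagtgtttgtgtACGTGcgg
PDK1 (chr2:172556065-172556094, + strand): ctgcccgcCACGTccctCACGTaccactcg
KDM3A (chr2:86441333-86441362, + strand): ccgggaggctgtGCGTGtcttgtgagagct
P4HA1 (chr10:73096935-73096964, − strand): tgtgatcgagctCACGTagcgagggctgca
BNIP3 had the most matches, 6 in its window, of which the printed stretch holds 4, and windows with 6 or more made up 0.923% of all. ANKRD37 had 3, and 10.1% of all windows held 3 or more. The window of EGLN3 held none of these letters. VEGFA and NDRG1 are named here without a sequence.

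Between 8866994 and 57937653 read pairs were assigned to a feature per library: 27433393 to 57937653 in RNA1, 19577853 to 30996228 in RNA2 and 8866994 to 13332413 in RNA3. The exogenous ABCC1 insert was counted 51035 to 594404 times per ABCC1 library and 0 to 15 times per empty vector library. Neuroblastoma markers summed to between 6797 and 13210 CPM (counts brought to the same depth by TMM) in all libraries, and 2 of the 9 rose and 5 fell in RNA1, where 17.9% of all genes rose and 19.7% fell. Of 12 markers of other cell types, 11 matched an ID. Their sum was 122 to 127 CPM in the empty vector line and 186 to 189 CPM in the ABCC1 line of RNA1, where 3 of the 6 tested rose and 0 fell. In RNA2 and RNA3 10 of them were tested, and 0 rose and 1 fell in each, where 1.7% and 2.8% of all genes changed, while of the 9 neuroblastoma markers 0 changed in RNA2 and 2 fell in RNA3. The ABCC1 effect on the matrix genes COL1A1 and DCN differed between the experiments in the joint edgeR fit of 18 libraries (adjusted p = 0.00379 and 0.00697). For the matrix genes COL3A1 and LUM no such difference passed. COL1A1 was low in RNA1, at means of 0.773 CPM without and 1.33 CPM with ABCC1. The sum over these markers of other cell types was 107 to 132 against 83.7 to 94.2 CPM in RNA2 and 160.1 to 186 against 129 to 149.8 CPM in RNA3. The endothelial marker CDH5 was at 0 in the empty vector line of RNA1, where VWF, also endothelial, averaged 0.531 CPM. In the empty vector lines of RNA2 and RNA3 CDH5 averaged 6.27 and 15.6 CPM. The part of these markers in the results below was not tested. The largest of them in RNA1 were the matrix genes LUM and DCN, at means of 108 and 76.4 CPM in the ABCC1 line and 83.1 and 38.4 CPM in the empty vector line. Reads on 372 olfactory receptor genes, taken as silent here, measured the background. Per kilobase of exon they averaged 0.00483 CPM in the empty vector line and 0.00406 CPM in the ABCC1 line of RNA1, here without the TMM scale. The same background was 0.619 and 0.287 CPM in RNA2 and 1.64 and 1.19 CPM in RNA3, so it was lower in the ABCC1 line each time. In RNA1 and RNA2 no ABCC1 library reached the empty vector range of this background. As a covariate it thus cannot be separated from the line there. Beyond counting noise, genes typically varied between replicates by 5.67% in RNA1, 35.3% in RNA2 and 19.7% in RNA3.

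Among the hypoxia response targets, the 2 secreted signals fell in the ABCC1 line of RNA1, ADM by 2.06-fold and VEGFA by 1.28-fold. NDRG1 rose 1.70-fold and EGLN3 1.54-fold, KDM3A rose 1.19-fold and PDK1 fell 1.15-fold. Thus 6 of the 10 genes changed in RNA1, 3 up and 3 down, by edgeR's quasi-likelihood test, which was passed at 0.05 after adjustment over all genes. Of all 16995 genes tested there, 37.6% changed, 17.9% up and 19.7% down. In RNA2 and RNA3 none of the 10 passed that threshold, where 1.7% and 2.8% of all genes did. With edgeR 1 of the 10 had an unadjusted p below 0.05 in RNA2 and 1 in RNA3, where 21.2% and 15.2% of all genes did. DESeq2 gave an adjusted p to 8 of the 10 in each, all but CA9 and ANKRD37, and called 0 of the 8, where it called 18.6% and 14.2% of all genes with an adjusted p. Of all genes tested, 1.25% changed up and 0.458% down in RNA2, and 2.03% up and 0.767% down in RNA3. With RLE size factors 966 genes rose and 199 fell in RNA3, beside 741 and 280 with TMM. The balance turned with other settings. In RNA2 425 genes rose and 156 fell, but 350 and 438 with at least 10 counts in every library and 2106 and 2818 with the spread shared over 18 libraries. In RNA3 the background reads as a covariate gave 189 and 599. The groups of 3 libraries did not overlap for 6 of the 10 genes in RNA1, 3 in RNA2 and 2 in RNA3, beside 50.4%, 29.8% and 19.5% of all genes. These shares of the 10 genes are near those of all genes. The median log2 fold change (log2FC, ABCC1 minus empty vector) of the 10 was −0.03, −0.11 and −0.16 in RNA1, RNA2 and RNA3, and that of all genes tested was 0.01, −0.19 and −0.09. For single genes, the smallest two-sided p of an exact permutation test is 0.1 at this group size.

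**Figure D1:**
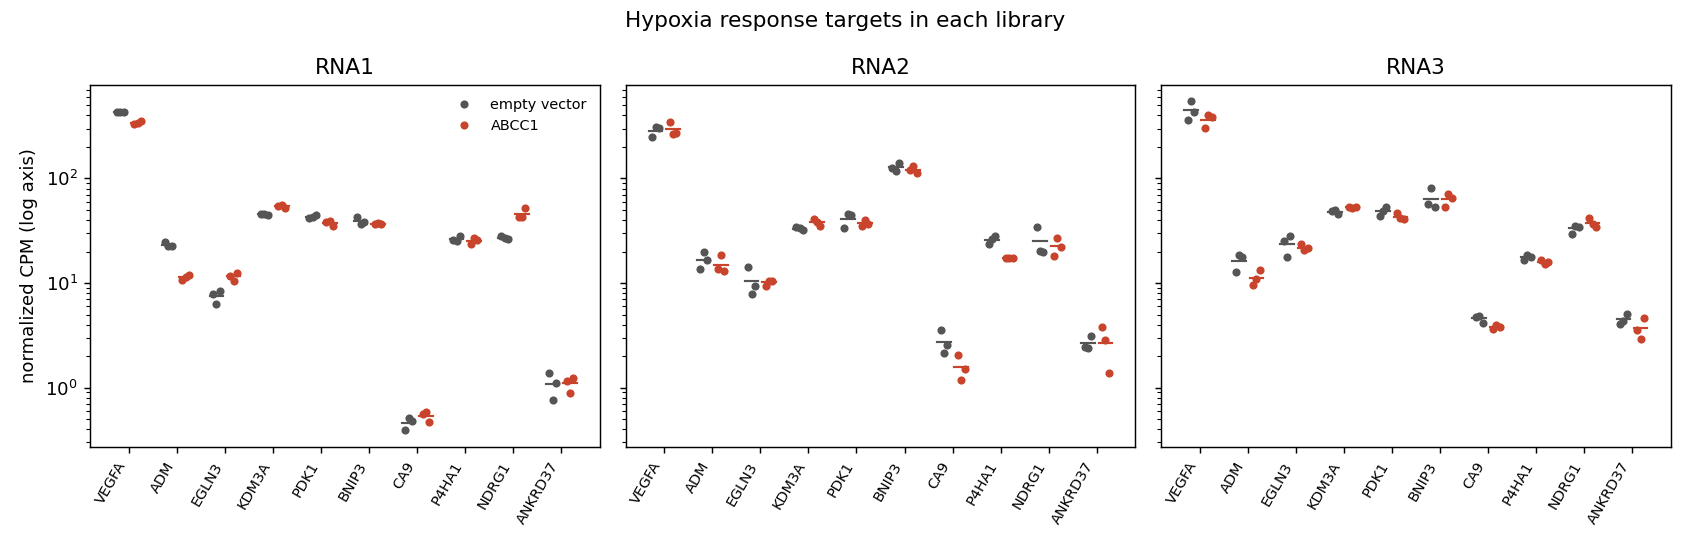
Normalized CPM (log axis) of the 10 hypoxia response targets in RNA1, RNA2 and RNA3, with a point per library, a bar at the mean of 3, and grey for empty vector and red for ABCC1. The lines are furthest apart in RNA1 for ADM and NDRG1, while CA9 and ANKRD37 are the lowest genes in every panel.

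VEGFA, the main growth factor for blood vessels (GRCh37 chromosome 6, 43737921 to 43754224), was the highest of the 10 in CPM in every group. In RNA1 it measured 435, 432 and 431 CPM without and 328, 337 and 353 CPM with ABCC1. The groups did not overlap, and every ABCC1 library was lower. The log2FC was −0.35 ± 0.04 (SE, adjusted p = 8.27e-05 from edgeR). With the spread between replicates and the TMM scale both taken over all 18 libraries the log2FC was −0.25 and the adjusted p rose to 0.775. Bulk RNA cannot tell less RNA per cell from fewer cells that make it. In RNA2 the values were 246, 312 and 300.3 CPM without and 348, 264 and 272 CPM with ABCC1, which overlap. The log2FC there was 0.04, with a 95% interval from −0.34 to 0.42. RNA3 gave 362, 545 and 436 CPM without and 306, 403 and 385 CPM with ABCC1. Its groups also overlap, and the log2FC of −0.29 had an interval from −0.71 to 0.12. With the background reads as a covariate, the RNA3 log2FC of VEGFA became −0.72 (edgeR adjusted p = 0.00877).

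ADM encodes adrenomedullin, a peptide hormone that widens vessels (chromosome 11, 10326227 to 10328944). Its levels in RNA1 were 24.7, 22.5 and 22.8 CPM in the empty vector line and 10.8, 11.4 and 12 CPM in the ABCC1 line. The highest ABCC1 library was far below the lowest empty vector library. The log2FC was −1.04 ± 0.07 (edgeR adjusted p = 1.37e-06), the largest change among the 10 genes in any experiment, and ADM stayed below the threshold in RNA1 under all 13 alternatives. In RNA2 the levels were 13.5, 19.8 and 16.7 CPM without and 13.5, 18.5 and 13.1 CPM with ABCC1. The groups overlap, with a log2FC of −0.16 and an interval from −0.54 to 0.23. In RNA3 they were 12.8, 18.6 and 17.8 CPM without and 9.57, 10.8 and 13.4 CPM with ABCC1. Only the highest ABCC1 library reached above the lowest empty vector library. The log2FC of −0.54 ± 0.19 had an interval from −0.93 to −0.16, but its adjusted p from edgeR was 0.117. The difference of the ADM effect between the experiments had an adjusted p of 0.221 in the joint edgeR fit of 18 libraries.

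EGLN3 is an oxygen-dependent hydroxylase that targets HIF alpha subunits and is itself a HIF target (chromosome 14, 34393437 to 34931980). RNA1 had 7.84, 6.28 and 8.44 CPM in the empty vector line and 11.7, 10.5 and 12.6 CPM in the ABCC1 line. All ABCC1 libraries were higher. Its log2FC was 0.63 ± 0.11 (edgeR adjusted p = 0.00115), and with the background reads as a covariate it was 0.47 with an adjusted p of 0.156. RNA2 had 14.2, 7.83 and 9.44 CPM without and 9.44, 10.4 and 10.6 CPM with ABCC1, and RNA3 had 25.3, 17.8 and 28.4 CPM without and 23.4, 20.6 and 21.5 CPM with ABCC1. The ABCC1 libraries lay within the range of the empty vector libraries in both. The log2FC was −0.05 (interval −0.51 to 0.41) in RNA2 and −0.12 (−0.46 to 0.21) in RNA3. The difference between the experiments did not pass the joint test (adjusted p = 0.179 from edgeR).

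KDM3A removes methyl groups from lysine 9 of histone H3 and needs oxygen to do so (chromosome 2, 86667770 to 86719839). It measured 46.0, 45.9 and 44.9 CPM in the empty vector line of RNA1 and 54.0, 56.1 and 52.4 CPM in the ABCC1 line. The log2FC was 0.25 ± 0.05 (edgeR adjusted p = 0.00195). In RNA2 the ABCC1 libraries had 40.7, 38.4 and 35.1 CPM, above 34.2, 33.3 and 31.8 CPM. In RNA3 they had 53.7, 52.7 and 53.2 CPM, above 48.4, 49.8 and 45.7 CPM. KDM3A was thus the only one of the 10 whose groups did not overlap, in the same direction, in all 3 experiments, as was true of 8.21% of the genes tested in all 3. The log2FC was 0.20 (−0.11 to 0.51) in RNA2 and 0.15 (−0.17 to 0.47) in RNA3, with edgeR adjusted p of 0.44 and 0.718. The RNA1 call was lost with the spread shared over 18 libraries (log2FC 0.35, adjusted p = 0.231) and with the background covariate (0.24, adjusted p = 0.135).

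PDK1 here is pyruvate dehydrogenase kinase 1, which inhibits pyruvate dehydrogenase in the mitochondria (chromosome 2, 173420101 to 173489823). RNA1 gave 41.8, 43.0 and 44.3 CPM in the empty vector line and 38.3, 38.8 and 35.1 CPM in the ABCC1 line. The groups did not overlap, and the fall was small, with a log2FC of −0.20 ± 0.06 (edgeR adjusted p = 0.0139). The call was lost without empty vector replicate 3 (−0.19, adjusted p = 0.0566), with the shared spread (−0.10, 1.0) and with the background covariate (−0.22, 0.235). RNA2 gave 33.6, 45.7 and 44.6 CPM without and 35.1, 39.9 and 36.9 CPM with ABCC1. RNA3 gave 44.0, 48.4 and 53.0 CPM without and 46.5, 42.2 and 40.9 CPM with ABCC1. These groups overlap, and the log2FC was −0.15 (−0.48 to 0.18) and −0.17 (−0.48 to 0.15).

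BNIP3 is a mitophagy receptor on the outer mitochondrial membrane (chromosome 10, 133781578 to 133795435). Its groups overlapped in all 3 experiments. RNA1 had 43.3, 36.4 and 37.9 CPM without and 36.4, 37.4 and 36.6 CPM with ABCC1, a log2FC of −0.09 (−0.24 to 0.05). RNA2 had 125, 118 and 139.7 CPM without and 119, 132 and 113 CPM with ABCC1, a log2FC of −0.07 (−0.42 to 0.27). RNA3 had 57.4, 80.5 and 53.8 CPM without and 53.4, 70.8 and 65.4 CPM with ABCC1, a log2FC of −0.02 (−0.35 to 0.32). BNIP3 counts may be uncertain, because 42 pseudogenes copy its sequence and pairs that map to several places were not counted. How many pairs were lost in this way was not tested. Summed over the 42, those copies had 2.04% to 3.53% of the BNIP3 CPM in RNA1, 12.4% to 26.2% in RNA2 and 61.4% to 127% in RNA3. The background on olfactory receptor genes also rose from RNA1 to RNA3, and its part in these sums was not tested.

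CA9, a carbonic anhydrase at the cell surface that is a classical marker of hypoxic tumors (chromosome 9, 35673853 to 35681156), was close to silent in RNA1. Its counts were 17, 14 and 15 without and 32, 19 and 27 with ABCC1, or 0.391 to 0.514 CPM against 0.466 to 0.589 CPM. The log2FC was 0.24 (−0.30 to 0.78). In RNA2 CA9 measured 3.54, 2.14 and 2.55 CPM without and 2.06, 1.19 and 1.52 CPM with ABCC1, and the groups did not overlap. The log2FC of −0.78 had an interval from −1.71 to 0.15 (edgeR adjusted p = 0.317). In RNA3 the levels were 4.73, 4.90 and 4.17 CPM without and 3.67, 3.95 and 3.8 CPM with ABCC1, again without overlap, at a log2FC of −0.27 (−0.90 to 0.35). The background on olfactory receptor genes, which was lower in the ABCC1 line too, was 30% to 38% of the CA9 level per kilobase in RNA2 and 52.1% to 59.7% in RNA3, against 1.25% to 1.75% in RNA1. Its part in the CA9 values was not tested. With the background as a covariate the CA9 log2FC was −1.02 in RNA2 and −0.38 in RNA3. CA9 was called in no experiment with or without that covariate, so the lack of a call cannot decide the question. CA9 also shares 643 bases of exon, 38.5% of its length, with ARHGEF39 on the opposite strand, and the counting did not use strand. Pairs on those bases can go uncounted while its length includes them. Its level per kilobase may thus be too low and the background shares too high.

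P4HA1 is a catalytic subunit of the prolyl hydroxylase that stabilizes collagen (chromosome 10, 74766975 to 74856732). RNA1 had 26.0, 25.3 and 28.1 CPM in the empty vector line and 23.7, 26.7 and 25.7 CPM in the ABCC1 line, which overlap, at a log2FC of −0.06 (−0.21 to 0.08). In RNA2 the levels were 23.6, 26.3 and 28.4 CPM without and 17.4, 17.4 and 17.6 CPM with ABCC1. Every ABCC1 library of RNA2 was lower, and the log2FC was −0.58 ± 0.16 with an interval from −0.90 to −0.26. Its edgeR adjusted p was 0.0534, just above the threshold. It was 0.0127 where only genes with at least 10 counts in every library were tested and 0.00878 with the spread shared over 18 libraries. The range over the alternatives was 0.00878 to 0.746. RNA3 had 16.5, 18.5 and 17.9 CPM without and 16.6, 15.2 and 16 CPM with ABCC1, a log2FC of −0.15 (−0.50 to 0.20). The joint test of a difference between the experiments gave an edgeR adjusted p of 0.268 for P4HA1, but 0.0157 with DESeq2 and 0.0149 with at least 10 counts in every library.

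NDRG1, an intracellular stress response protein induced by hypoxia and by differentiation, is encoded on chromosome 8. Its levels in RNA1 were 28.3, 26.9 and 26.1 CPM in the empty vector line and 43.2, 42.4 and 52.6 CPM in the ABCC1 line. No ABCC1 library came near the empty vector range, and the log2FC was 0.77 ± 0.08 (edgeR adjusted p = 5.3e-05). NDRG1 passed the threshold in RNA1 under all 13 alternatives, at 0.66 to 0.87. In RNA2 it had 34.7, 20.4 and 20.0 CPM without and 18.3, 27.2 and 22.2 CPM with ABCC1. The empty vector replicate 1 was the highest library there, and without it the log2FC turned from −0.15 (−0.55 to 0.26) to 0.18. In RNA3 it had 29.7, 35.5 and 34.6 CPM without and 42.0, 36.9 and 34.2 CPM with ABCC1, a log2FC of 0.18 (−0.14 to 0.50). The ABCC1 effect on NDRG1 differed between the experiments in the joint fit (edgeR adjusted p = 0.0338), and the other 9 did not pass that test. P4HA1 passed it as well with DESeq2 and with at least 10 counts in every library. By the coefficients of the joint fit without the block, the log2FC of NDRG1 was lower than in RNA1 by 1.00 in RNA2 and by 0.61 in RNA3. In that fit 1.19% of the 46225 genes tested passed. By the study's methods RNA1 was made with another library kit than RNA2 and RNA3, and the cells of the repeats were thawed or newly transfected, so kit, cells and experiment cannot be told apart in this difference.

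ANKRD37, a small protein of ankyrin repeats known as a HIF target (chromosome 4, 186317175 to 186321782), passed the test in no experiment. RNA1 had 1.38, 0.771 and 1.11 CPM without and 1.17, 0.899 and 1.24 CPM with ABCC1. RNA2 had 2.43, 2.38 and 3.13 CPM without and 3.82, 2.84 and 1.39 CPM with ABCC1, and RNA3 had 4.10, 4.35 and 5.11 CPM without and 3.59, 2.92 and 4.62 CPM with ABCC1. The groups overlap each time. The log2FC was 0.01 (−0.48 to 0.49), 0.02 (−0.88 to 0.91) and −0.28 (−0.91 to 0.36). Per kilobase of exon its level was 1.07 and 1.21 times the olfactory background in the empty vector and ABCC1 lines of RNA3, so as counted it was near that background. ANKRD37 shares 909 bases of exon, 35.2% of its length, with UFSP2 on the opposite strand. Pairs on those bases can go uncounted while its length includes them, so its level per kilobase may be too low.

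**Figure D2:**
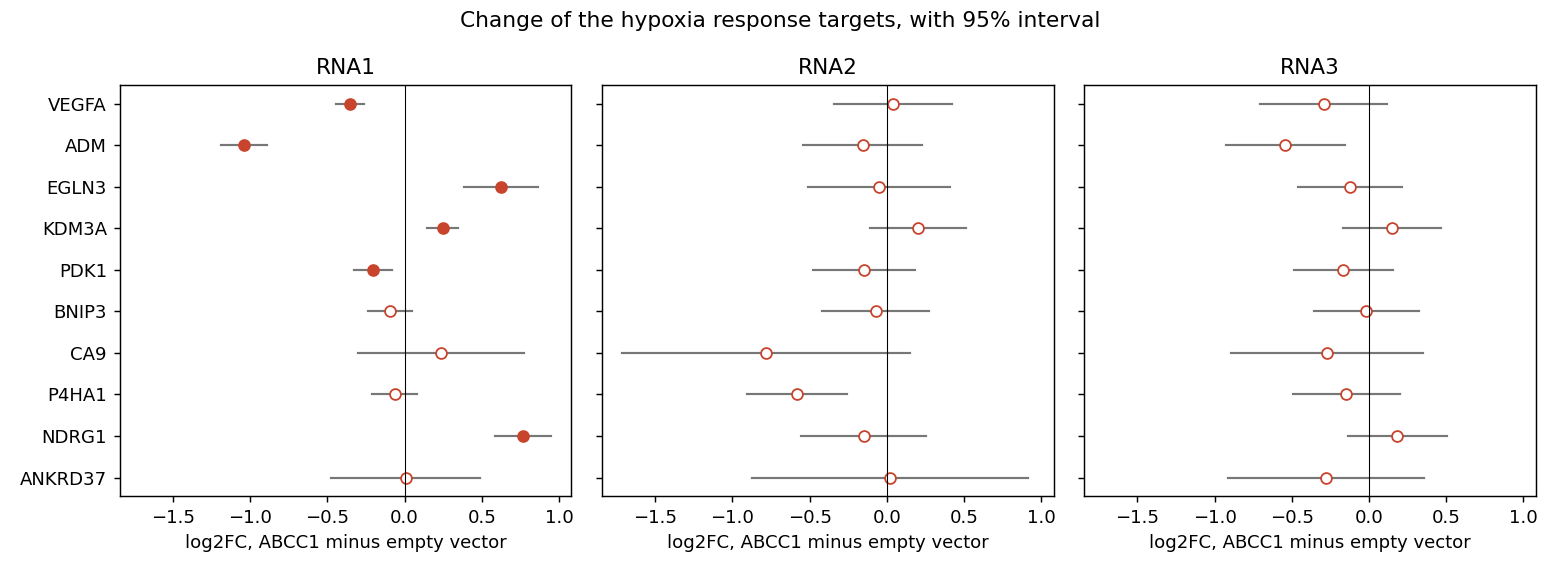
Log2FC of ABCC1 against empty vector for the 10 genes in RNA1, RNA2 and RNA3, as points with their 95% interval, filled where edgeR's adjusted p is at most 0.05. Filled points are seen only in RNA1, for 6 genes, and the intervals of RNA2 and RNA3 are wider, as for CA9 in RNA2 (−1.71 to 0.15).

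Levels between genes were compared per kilobase of exon, which may understate CA9 and ANKRD37 because of their shared exons. In the empty vector line of RNA1 the order was VEGFA at 30 ± 0.173 CPM per kilobase (SD, n = 3), BNIP3 at 18.6 ± 1.71, ADM at 8.60 ± 0.433, P4HA1 at 8.31 ± 0.459, KDM3A at 3.40 ± 0.0441, PDK1 at 2.85 ± 0.0827, NDRG1 at 2.76 ± 0.115, EGLN3 at 1.02 ± 0.151, ANKRD37 at 0.421 ± 0.118 and CA9 at 0.276 ± 0.0378. The libraries of neighbours in this order overlapped for ADM and P4HA1, for PDK1 and NDRG1 and for ANKRD37 and CA9, and were apart otherwise. In the ABCC1 line of RNA1 the level of ADM, at 4.19 ± 0.227 per kilobase, fell behind those of P4HA1 (7.96 ± 0.485) and NDRG1 (4.69 ± 0.575), although the libraries of NDRG1 and ADM overlapped. In RNA2 BNIP3 led, with 60.4 ± 5.23 in the empty vector line and 57.5 ± 4.65 in the ABCC1 line, and VEGFA followed at 19.8 ± 2.42 and 20.4 ± 3.22 per kilobase. In RNA3 VEGFA and BNIP3 could not be ordered, since their libraries overlapped in both lines, at 31.0 ± 6.40 and 30.3 ± 6.86 in the empty vector line and 25.3 ± 3.56 and 29.9 ± 4.21 in the ABCC1 line. The order by CPM alone differs, because the counted exons of PDK1, VEGFA and KDM3A span 15.1, 14.4 and 13.4 kilobases and those of CA9 and BNIP3 1.67 and 2.11. By CPM, BNIP3 ranked 4 in the empty vector line of RNA1, behind KDM3A and PDK1.

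**Figure D3:**
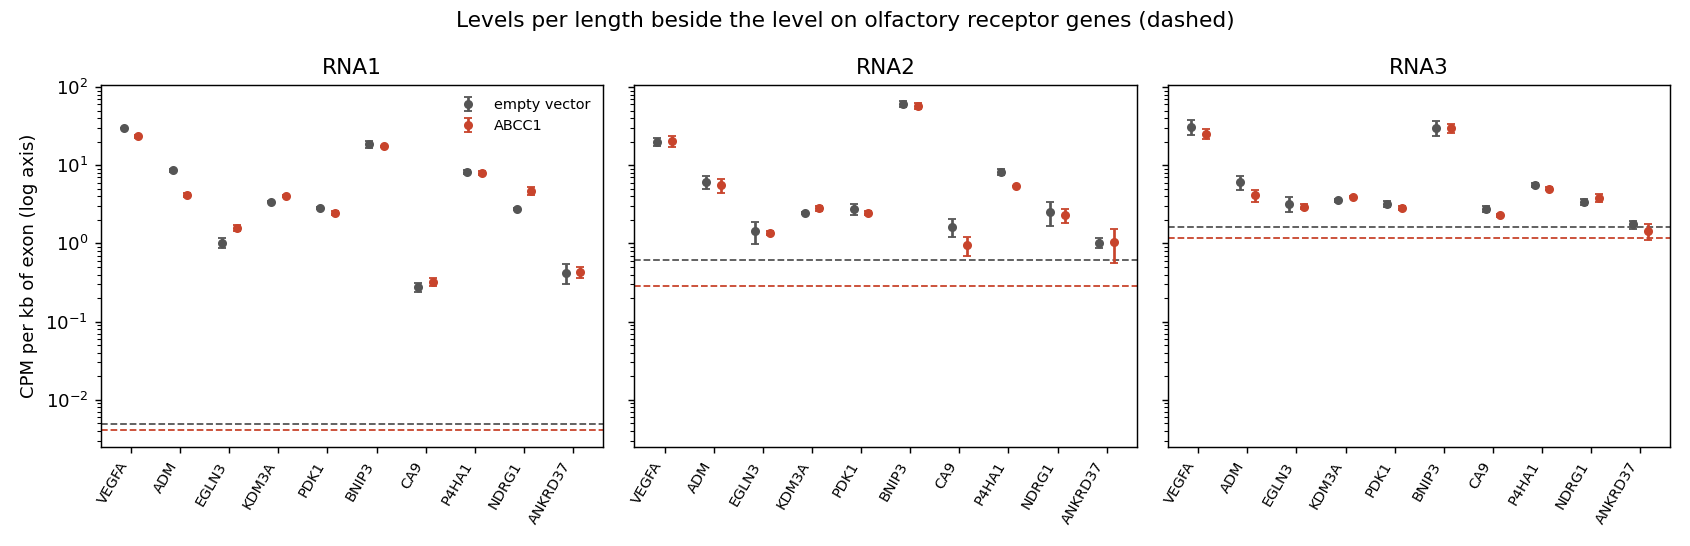
Mean CPM per kilobase of exon (log axis) with SD over 3 libraries for the 10 genes, grey for empty vector and red for ABCC1, with dashed lines at the mean level on olfactory receptor genes. The dashed lines rise from 0.00483 and 0.00406 in RNA1 to 1.64 and 1.19 in RNA3, where ANKRD37 lies next to them.

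The genes that build, modify and break down HIF moved in both directions in RNA1, where 3 of 14 rose and 6 fell, as 17.9% and 19.7% of all genes did. CITED2, which competes with HIF for its coactivator, rose in all 3 experiments. Its levels were 31.1, 29.1 and 26.2 CPM without and 41.9, 42.0 and 56.3 CPM with ABCC1 in RNA1. In RNA2 they were 16.8, 11.1 and 13.1 CPM without and 31.2, 23.4 and 28.5 CPM with ABCC1, and in RNA3 14.4, 16.1 and 13.7 CPM without and 25.7, 26.7 and 28.1 CPM with ABCC1. No groups overlapped. The log2FC was 0.70 ± 0.12, 1.03 ± 0.18 and 0.87 ± 0.17 (edgeR adjusted p = 0.00148, 0.00688 and 0.000319). The RNA2 call was lost without empty vector replicate 3 (1.01, adjusted p = 0.0924). The background covariate ended the calls in RNA1 (adjusted p = 0.0764) and RNA2 (0.284), with log2FC of 0.70 and 0.99.

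HIF1A, the widely expressed alpha subunit, fell from a mean of 309 to 275 CPM in RNA1 (log2FC −0.17 ± 0.04, edgeR adjusted p = 0.00633). EPAS1, the alpha subunit HIF-2 alpha, was hardly expressed and fell from 1.18 to 0.522 CPM (−1.16 ± 0.21). The beta subunits ARNT and ARNT2 fell by 0.24 and 0.26 on the log2 scale, and ELOC and CUL2, parts of the VHL ligase, by 0.22 and 0.31. HIF3A, another alpha subunit, rose from 1.17 to 1.75 CPM (0.56 ± 0.16), and the hydroxylase EGLN2 rose by 0.29 ± 0.10. These calls of RNA1 held under fewer alternatives than that of ADM. All 8 were lost with the spread shared over 18 libraries, and 7, all but CUL2, with the background covariate, though each kept its direction and some their size. EPAS1 had a log2FC of −1.05 with the shared spread (adjusted p = 0.0527) and −1.24 with the covariate (0.072), and HIF3A had 0.67 with the shared spread (0.0981). HIF3A was also lost with DESeq2 (adjusted p = 0.101) and without empty vector replicate 2 or 3 (0.0646 and 0.077), and EGLN2 with DESeq2 (0.098) and without ABCC1 replicate 2 or empty vector replicate 1 or 2 (0.0551 to 0.164). EGLN1, HIF1AN, VHL, ELOB and RBX1 did not pass the test in RNA1, with log2FC of 0.21, −0.02, 0.05, 0.24 and 0.03. In RNA2 and RNA3 CITED2 was the 1 gene of the 14 that passed edgeR's test, where 1.7% and 2.8% of all genes did. DESeq2 also called HIF1AN in RNA2, where it called 18.6% of all genes with an adjusted p. The median log2FC of the 14 was 0.00, 0.16 and −0.17 in RNA1, RNA2 and RNA3.

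**Figure D4:**
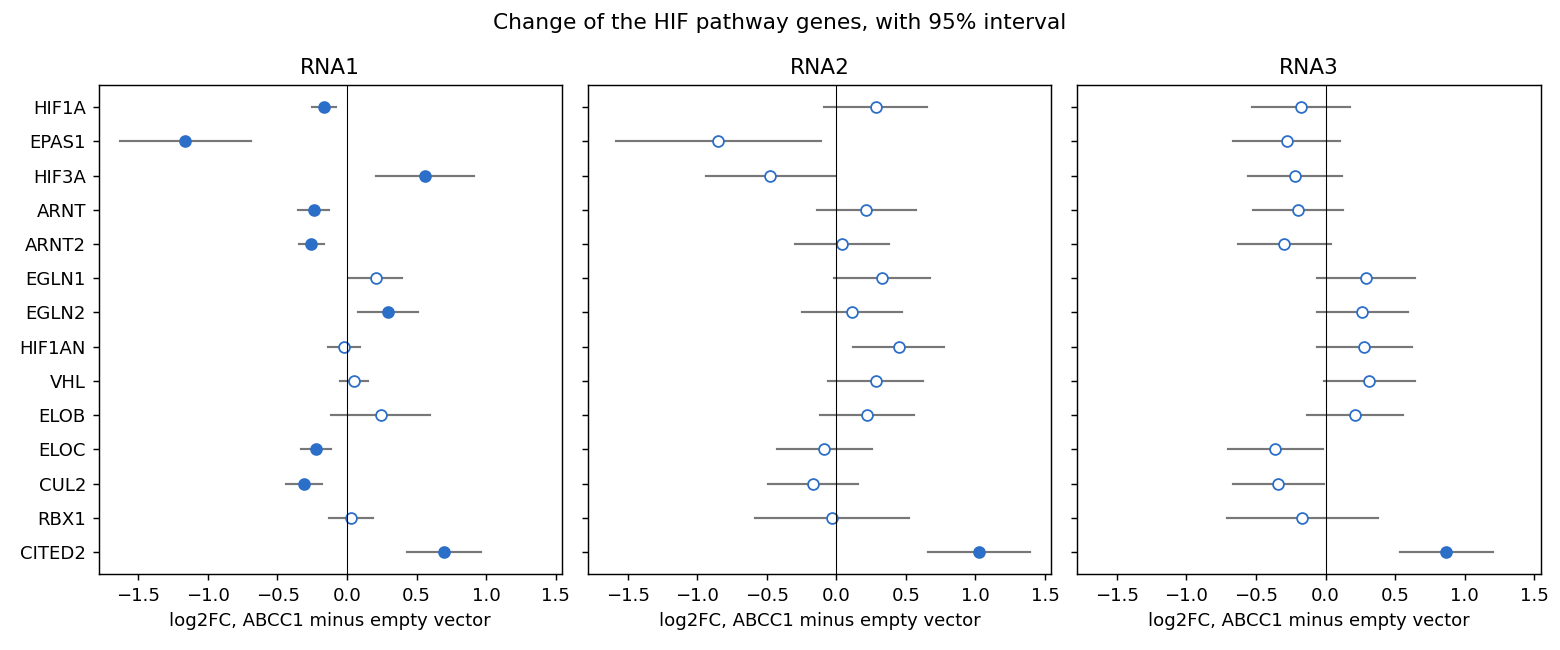
Log2FC of ABCC1 against empty vector for 14 genes of the HIF pathway in RNA1, RNA2 and RNA3, with 95% intervals and filled points where edgeR's adjusted p is at most 0.05. CITED2 is filled in every panel, at 0.70, 1.03 and 0.87, and the other 8 filled points are in RNA1.

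Of 13 relatives, receptors and coreceptors of VEGFA and ADM, 10 were tested in RNA1, and 2 rose (VEGFC, a ligand, and FLT4, a receptor, named after their values were seen) and 3 fell, where 17.9% of all genes rose and 19.7% fell. NRP1 (neuropilin 1), a coreceptor for VEGFA, fell in all 3 experiments. In RNA1 it measured 30.9, 29.1 and 31.4 CPM without and 11.8, 10.9 and 10.6 CPM with ABCC1. The levels were 18, 26.6 and 23.4 CPM against 14.5, 12.9 and 12.4 CPM in RNA2 and 43.1, 59.1 and 42.8 CPM against 29.1, 24.1 and 29.6 CPM in RNA3. Every ABCC1 library was below every empty vector library of its experiment. The log2FC was −1.46 ± 0.06, −0.77 ± 0.18 and −0.81 ± 0.16 (edgeR adjusted p = 7.57e-08, 0.0282 and 0.000681). In RNA2 DESeq2 gave an adjusted p of 0.0513, RLE size factors 0.0525 and the background covariate 0.24. The RNA2 call was also lost without ABCC1 replicate 2 or 3 or empty vector replicate 2 or 3 (adjusted p of 0.0604 to 0.173), and the RNA3 call without ABCC1 replicate 2 (0.0531). ADM2, a relative of ADM, fell by 0.32 and RAMP1, an accessory protein of receptors of the adrenomedullin family, by 0.26 on the log2 scale in RNA1. Both passed there, but not with the shared spread (adjusted p = 0.844 and 0.911) or the background covariate (0.0636 and 0.147), and not in RNA2 or RNA3. In each of RNA2 and RNA3 NRP1 was the 1 gene of the 13 that edgeR called, beside 1.7% and 2.8% of all genes. In RNA2 DESeq2 called VEGFB and KDR, named after their values were seen, in place of NRP1. It called 18.6% of all genes with an adjusted p there. The difference of the NRP1 effect between experiments did not pass the joint test (edgeR adjusted p = 0.295).

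Of 21 glycolysis genes, many of them HIF targets, 5 rose (HK1, PFKL, PFKP, PFKFB3 and PFKFB4) and 2 fell (HK2 and PGAM1) in RNA1, with a median log2FC of −0.03 and beside 17.9% and 19.7% of all genes. HK2, the hexokinase that opens glycolysis, fell from a mean of 270 to 191 CPM (log2FC −0.50 ± 0.04, edgeR adjusted p = 3.32e-06), which was not called with the shared spread (0.332). PFKFB3 and PFKFB4, which make and break the activator of phosphofructokinase, rose by 0.41 ± 0.05 and 0.37 ± 0.11. The call of PFKFB4 was lost with DESeq2 (adjusted p = 0.0598), with the shared spread (0.335) and with the background covariate (0.663). It was also lost without ABCC1 replicate 2, empty vector replicate 1 or empty vector replicate 2 (0.0553 to 0.102), while PFKFB3 passed under all 13 alternatives. In RNA2 and RNA3 edgeR called 0 of the 21, with 5 and 2 at an unadjusted p below 0.05, beside 21.2% and 15.2% of all genes. DESeq2 called 0 of the 18 to which it gave an adjusted p in RNA3 but 5 of 21 in RNA2, all higher with ABCC1, namely HK1, PFKM, PFKFB3, ALDOA and GAPDH. Of all genes with a DESeq2 adjusted p in RNA2, 18.6% were called and 16.2% were called higher, so most DESeq2 calls there were higher. Of the glycolysis genes given here, those other than HK2, PFKFB3 and PFKFB4 are named after their values were seen.

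Of 30 other known hypoxia targets, 27 were tested in RNA1, of which 7 rose and 9 fell, with a median log2FC of −0.06 and beside 17.9% and 19.7% of all genes. P4HA2, the sister subunit of P4HA1, was called in 2 experiments. It measured 78.0, 84.1 and 84.4 CPM without and 53.4, 52.3 and 47.8 CPM with ABCC1 in RNA1, and 28.7, 34.2 and 39.5 CPM against 24.6, 17.3 and 23.2 CPM in RNA2. In RNA3 it had 68.5, 81.0 and 78.1 CPM against 55.6, 54.8 and 59.1 CPM, and the groups did not overlap in any experiment. The log2FC was −0.68 ± 0.05 and −0.65 ± 0.17 in RNA1 and RNA2 (edgeR adjusted p = 5.85e-06 and 0.0478) and −0.42 ± 0.17 in RNA3 (0.167). The RNA2 call is fragile, since it was lost without any 1 of the 6 libraries (adjusted p of 0.0502 to 0.24). It was lost with DESeq2 (0.0971), RLE size factors (0.101), no filter on low counts (0.052) and the background covariate (0.434) as well. CA12, a relative of CA9, rose from 3.18 to 5.43 CPM in RNA1 (0.76 ± 0.11, edgeR adjusted p = 0.000461). CA12 was lost with the background covariate (0.124). P4HA2 was the 1 gene of the 30 that edgeR called in RNA2, beside 1.7% of all genes. In RNA3 edgeR called 0, with 5 of the 30 at an unadjusted p below 0.05 beside 15.2% of all genes, and DESeq2 called 0 of the 20 to which it gave an adjusted p. In RNA2 DESeq2 called MXI1 and FUT11, named after their values were seen, in place of P4HA2, beside 18.6% of all genes with an adjusted p.

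**Figure D5:**
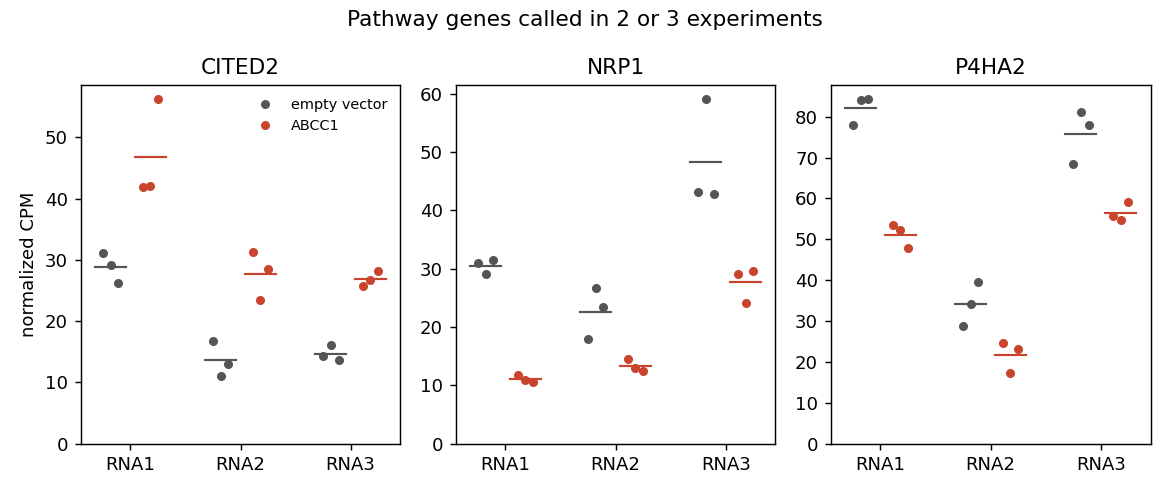
Normalized CPM of CITED2, NRP1 and P4HA2 in RNA1, RNA2 and RNA3, with a point per library, a bar at the mean of 3, and grey for empty vector and red for ABCC1. The ABCC1 libraries lie above the others for CITED2 and below them for NRP1 and P4HA2 in every experiment, and P4HA2 did not pass edgeR's test in RNA3 (adjusted p = 0.167).

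Among 10 relatives of the hypoxia response targets, 8 were tested in RNA1, of which 1 rose and 3 fell, beside 17.9% and 19.7% of all genes. NDRG2, of the same family as NDRG1, rose from a mean of 14.5 to 21.2 CPM (log2FC 0.55 ± 0.06, edgeR adjusted p = 8.38e-05). Its log2FC was −0.30 ± 0.20 in RNA2 and 0.11 ± 0.17 in RNA3, where it was not called. As for NDRG1, its effect differed between the experiments in the joint fit (adjusted p = 0.0264). KDM3B and PDK3, relatives of KDM3A and PDK1, fell by 0.19 ± 0.05 and 0.29 ± 0.10 on the log2 scale in RNA1 (edgeR adjusted p = 0.0158 and 0.0356). KDM3B was lost with the shared spread (1.0), the background covariate (0.186) and without empty vector replicate 3 (0.0682). JMJD1C, another relative of KDM3A, fell too and is named after its value was seen. PDK3 was called under only 3 of the 13 alternatives, RLE size factors, a minimum of 10 counts per library and without ABCC1 replicate 3, and with any other library left out its adjusted p was 0.0501 to 0.132. In RNA2 and RNA3 edgeR called 0 of the 10, with 2 and 1 at an unadjusted p below 0.05, beside 21.2% and 15.2% of all genes. DESeq2 called NDRG3, named after its value was seen, in RNA2, and 0 in RNA3 of the 8 to which it gave an adjusted p.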

How the data were processed

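Total RNA of the cultures was sequenced in 18 libraries, and per the labels and the study's methods the authors made reads with bcl2fastq 2.18, aligned them with STAR 2.7.3a to GRCh37 with the vector sequences added, and counted read pairs on exons with featureCounts of Subread 2.0.0. The deposited values are these raw counts per gene, not normalized, counted without strand. Pairs that map to several places or overlap several genes are not counted by default. For RNA1 the labels name TruSeq in one field and SMARTer Pico in another; the study's methods give TruSeq for RNA1 and SMARTer Pico for RNA2 and RNA3.

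Counts of 57905 Ensembl genes and 6 vector sequences entered 1 fit per experiment (edgeR 4.0.16, R 4.3.3). The 92 spike-ins were left out. Low genes were dropped by filterByExpr (minimum count 10), TMM set the scale, and the test was edgeR's robust quasi-likelihood test. The two-sided p-values were adjusted over all features tested by the Benjamini-Hochberg method, and a gene was called at an adjusted p of at most 0.05. SE is the size of the log2FC divided by the square root of F. A joint fit of all libraries tested the interaction of experiment and line. CPM are TMM-normalized, and exact permutation tests used log2(CPM + 0.1). The level on olfactory receptor genes was scaled to the assigned pairs alone. TMM factors ran from 0.872 to 1.16, so ratios of gene levels to that background are approximate. Symbols matched 51996 of 57905 IDs. Fits were tested on simulated data. Of genes changed by 1.5 on the log2 scale many were missed in RNA2 and the joint fit, so changes of that size can go uncalled there. A size of 2.5, added after that run, was recovered for nearly every gene that was changed. The changed genes all had higher mean counts than CA9 and ANKRD37 in any experiment, and a common spread was used within each experiment. The simulation thus does not cover genes as low as these targets.

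Alternatives were DESeq2 1.42.0, RLE size factors, no filter on low counts, at least 10 counts in every library, the replicate number as a block, the spread shared over 18 libraries, the level on olfactory receptor genes as a covariate, and each library left out. The fit with the shared spread also filtered genes and set TMM over all 18 libraries, so its log2FC differ in scale too. In RNA1 and RNA2 the covariate did not overlap between the lines, so calls lost with it there cannot be assigned to the background. Named genes are all 10 targets, the HIF pathway list, and from the other lists those called the same way in at least 2 experiments and, per experiment, the 3 called genes of at least 1 CPM with the largest change; 1 of these is not reported here. The genes, lists and tests were chosen with earlier results of these data known. The 30-base stretches and the window shown for PDK1 and KDM3A were chosen after the matches were seen. The study's methods describe cultures plated each week and assayed together, but no source used here says which library comes from which week. The p-values measure the spread between these libraries. Depths speak for counting error alone, because the read pairs carry no molecular identifiers. No 2 libraries of a group were as alike as sampling noise allows (chi-square of 1.49 to 22.7 per degree of freedom), so none was counted as deposited more than once, and the replicates are those of the labels.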

Additional observations from a re-analysis of the deposited data

Results flagged for a closer look

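NDRG1 stood out because its ABCC1 effect differed between the experiments in the joint fit of 18 libraries (edgeR adjusted p = 0.0338). It did not pass with the replicate number as a block. Its log2FC was 0.77 in RNA1, −0.15 in RNA2 and 0.18 in RNA3. NDRG2, its relative, stood out in the same way (adjusted p = 0.0264), with log2FC of 0.55, −0.30 and 0.11. The background on olfactory receptor genes per kilobase of exon was 24.3% and 12.5% of the NDRG1 level in the empty vector and ABCC1 lines of RNA2, and 48.6% and 30.9% in RNA3, against 0.175% and 0.0865% in RNA1. Markers of other cell types stood out too, COL1A1 (adjusted p = 0.00379), with log2FC of 0.83, −0.83 and −0.47, and DCN (adjusted p = 0.00697), with log2FC of 0.99, 0.26 and −0.057. COL3A1 and LUM did not pass that test, and COL1A1 was low in RNA1, at means of 0.773 and 1.33 CPM. The part of the background and of these markers in the difference was not tested, and the library kit and the source of the cells cannot be told apart from the experiment.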

How the results depend on the processing

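Of the 10 targets, 6 were called in RNA1 with DESeq2, RLE size factors, no filter, the replicate block and a minimum of 10 counts per library. It was 3 with the spread shared over 18 libraries (ADM, NDRG1 and EGLN3) and 3 with the olfactory covariate (ADM, VEGFA and NDRG1), where 3.31% and 10% of all genes tested were called, and 5 to 6 with a library left out. In RNA2 1 was called with that minimum and 1 with the shared spread (P4HA1 each time), beside 3.55% and 10.7% of all genes, in RNA3 1 with the covariate (VEGFA), beside 2.16%, and 0 with a library left out. The ABCC1 effect differed between experiments for 2 targets with DESeq2 and 2 with that minimum (NDRG1 and P4HA1), 1 with RLE and 0 with the replicate block, where NDRG1 had an adjusted p of 0.115. The replicate numbers were not taken as pairs, since correlations of same-numbered libraries ran from −0.14 to 0.09, and the block changed no other call of the targets. Of the other genes named it ended the RNA1 call of PDK3 (adjusted p = 0.0569).

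Some log2FC that were not called turned sign. DESeq2 gave BNIP3 0.067 and EGLN3 0.10 in RNA2 and BNIP3 0.060 in RNA3, and RLE gave 0.037, 0.068 and 0.047 for the same. Without a filter EGLN3 was 0.0076 in RNA2. With the minimum of 10 counts per library VEGFA was −0.084 and ANKRD37 −0.12 in RNA2, and BNIP3 0.022 in RNA3. The replicate block gave ANKRD37 −0.071 in RNA2. The shared spread, with TMM also set over all 18 libraries, gave BNIP3 0.0073 and P4HA1 0.038 in RNA1 and BNIP3 0.062 in RNA3. The covariate gave ANKRD37 −0.11 in RNA1, VEGFA −0.29, NDRG1 0.30, ANKRD37 −0.88 and EGLN3 0.25 in RNA2, and EGLN3 0.25 in RNA3. With each library left out, ANKRD37 ran from −0.17 to 0.24 in RNA1. In RNA2 VEGFA ran from −0.088 to 0.13, BNIP3 from −0.12 to 0.013, NDRG1 from −0.29 to 0.18, ANKRD37 from −0.33 to 0.37 and EGLN3 from −0.22 to 0.26. In RNA3 BNIP3 ran from −0.10 to 0.19 and EGLN3 from −0.29 to 0.046. The causes were not tested.

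The number of genes tested differed between settings. Over all genes, edgeR called 6382 (37.6%) in RNA1, 1528 with the shared spread and 1705 with the covariate. For RNA2 the count was 581 (1.7%), and 2849 with DESeq2 (18.6% of those with an adjusted p), 1086 with RLE (3.19%), 1402 without a filter (2.58%), 4924 with the shared spread, 9 with the covariate (0.0264%) and 8 to 1359 with a library left out. For RNA3 it was 1021 (2.8%), and 1597 with DESeq2 (14.2%), 1725 with the minimum of 10 (6.25%), 1885 with the block (5.16%) and 394 to 2762 with a library left out. The difference between experiments was called for 551 genes, 877 with DESeq2 and 363 with the minimum of 10 (2.46%). How far depth limits these counts was not tested.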
